A study of Homo sapiens with 24 samples.

Results

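*ROR2* KD and control cells were compared on day 14 of neural induction. The comparison rests on the 3 arrays titled as *ROR2* KD on day 14 and the 3 titled as sh-C on the same day, 6 of the 24 arrays of the series, and covers every transcript cluster with a gene symbol. Both groups derive from R-2A (HiPS-RIKEN-2A), a human induced pluripotent stem cell (hiPSC) line, into which lentivirus had brought a control shRNA (control cells) or an shRNA against *ROR2* (*ROR2* KD cells), with selection by puromycin. Both were turned towards neural stem/progenitor cells (NS/PCs) with the same STEMdiff SMADi kit, whose inhibitors block SMAD signaling, and both were passaged every 7 days, so that the cells had been replated before day 14. The labels name biological replicates but do not tell separately transduced lines apart, and the study's text does not say which of its shRNAs the arrays used. The p-values below set a difference against the spread between such replicates, pooled over the 8 groups of all 24 arrays and not taken from day 14 alone. An effect of the knockdown and any other difference between the 2 lines cannot be told apart.

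*ROR2* encodes a receptor tyrosine kinase-like protein of the cell surface that binds WNT5A and passes on noncanonical WNT signals, which act without beta-catenin. In the developing forebrain, WNT, FGF, BMP and hedgehog signals divide the neural epithelium into regions. Homeobox genes of the DLX and GSX families mark the ganglionic eminences of the ventral forebrain, where GABAergic neurons are born, while *NKX2-1* marks the most ventral of them and the hypothalamus. Cells that receive FGF signals through ERK raise a set of feedback inhibitors and ETS factors, which makes this set a usual readout of the pathway.

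The deposited values are log2 signals, 1 per transcript cluster and array. The medians of the 6 arrays differed by little (4.26 to 4.30). Pearson correlations across clusters were 0.984 to 0.987 within the groups and 0.98 to 0.984 between them. The background probe sets of an array gave its background level, which was set at their 95th percentile. It lay between 8.54 and 8.87 for control cells and between 7.76 and 8.07 for *ROR2* KD cells, so that equal signals can count as background in the former and not in the latter. NS/PC markers were present in both groups, with 8 of 8 above the level on every array. Of 5 measured markers of pluripotent cells, *LIN28A* and *DPPA4* were above it on every array, and *POU5F1*, *NANOG* and *L1TD1* on none. All 6 markers of the neural crest, all 6 of mesoderm, endoderm and endothelium and all 3 of the choroid plexus were above it on no array. The same held for all 3 measured of pigment cells and all 4 measured of astrocytes and oligodendrocytes. Of 4 measured markers of placode and surface ectoderm, *CDH1*, *GRHL2* and *KRT5* were above it on no array.

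The targeted gene was low in *ROR2* KD cells. *ROR2* read 6.65, 6.32 and 6.68 (log2 signal) on the control arrays and 4.11, 4.02 and 3.82 on the *ROR2* KD arrays. The groups did not overlap, although no array of either group was above its background level. The log2 difference was -2.56 (standard error 0.26, adjusted p = 1.98e-06 from limma with Benjamini-Hochberg adjustment), and the mean signal was 16.9% of that of control cells. *WNT5A*, the ligand of ROR2, read 6.93 ± 0.23 (SD, n = 3) in control and 6.59 ± 0.13 in *ROR2* KD cells and was not called (adjusted p = 1).

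The threshold for a call was an adjusted p of 0.05 together with a 2-fold change. Of 37295 clusters with a symbol, 607 were called (1.63%), 337 higher (0.904%) and 270 lower (0.724%) in *ROR2* KD cells. Counted with 1 cluster per gene, 573 of 33616 genes were called (1.7%), 314 higher (0.934%) and 259 lower (0.77%). The gene lists below are set beside these shares, which include 23140 genes above background on no array. The lists were chosen with earlier results of these data known. The 3 *ROR2* KD arrays lay outside the range of the 3 control arrays for all 607 called clusters, as they did for 22.2% of all clusters with a symbol. Changes above 4-fold numbered 105 upwards and 57 downwards, and those above 16-fold 9 and 6. Many changes started or ended under the background level, in that no control array was above it for 178 of the higher clusters and no *ROR2* KD array for 134 of the lower ones, together 312 of the 607. Of these, 157 were above it on no array of either group. Another 100 clusters passed the adjusted p but not the fold change, and 228 passed the fold change but not the adjusted p. The median log2 fold change over all clusters with a symbol was -0.03.

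**Figure D1:**
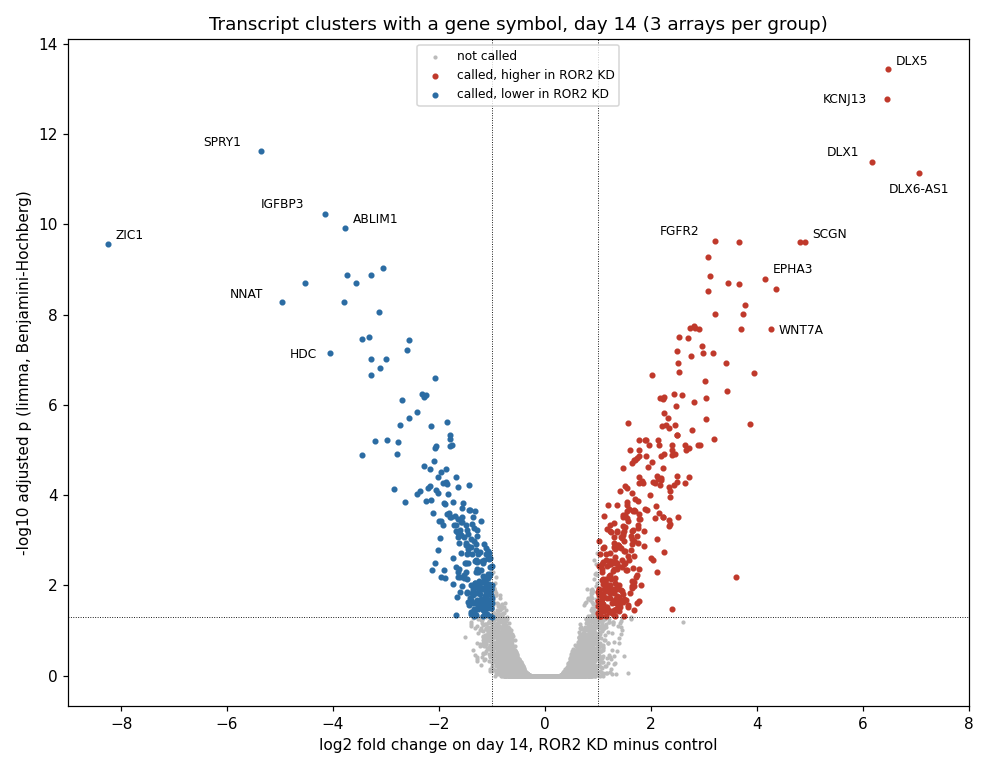
Each point is a transcript cluster with a gene symbol, placed by its log2 fold change on day 14 (ROR2 KD minus control, 3 arrays per group) and the negative log10 of its adjusted p, with dotted lines at the thresholds. The 337 clusters called higher are red and the 270 called lower are blue, with DLX6-AS1 farthest to the right at 7.06 and ZIC1 farthest to the left at -8.26.

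Where all arrays of 1 group were under the background level, the fold has only a lower bound. The mean of the brighter group was set against the dim group, with each dim array taken at its lowest signal above background, and the ratio is written as "at least". The bound passed 2-fold for 28 of 119 such higher genes and 15 of 29 such lower ones. Among the genes named below, it was under 1 for *BMP4*, *CDH18*, *CDH20*, *DLL3*, *FGFR3*, *GAD2*, *GRIA2*, *MT1L*, *MYT1*, *OTX1*, *PCDH9*, *SCGN* and *SNAP25*. Many called genes that are not discussed had such bounds too, for example *L1CAM* (0.96) and *NRP2* (0.911). There is no bound for genes with both groups under the level. For all these genes, a log2 difference is that of the measured signals and gives no size of the change in RNA. In a culture of mixed cells, fewer cells of a type and less RNA per cell cannot be told apart.

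Genes of the forebrain GABAergic lineage held 3 of the 4 largest increases. Of 23 listed genes, 19 had a cluster, of which 10 rose, 1 fell and 8 were not called, with a median log2 fold change of 2.49. The called share was 57.9%, against 1.7% of all genes. The long noncoding RNA *DLX6-AS1*, which lies beside the homeobox genes *DLX5* and *DLX6*, read 7.07, 7.39 and 7.32 on the control arrays and 14.43, 14.38 and 14.16 on the *ROR2* KD arrays. It was thus under the background level in control cells and among the bright transcripts in *ROR2* KD cells. Its level was at least 49.8-fold higher (log2 fold change 7.06, standard error 0.33, adjusted p = 7.33e-12). *DLX5* rose from 6.26, 5.94 and 6.50 to 12.60, 12.73 and 12.82, at least 16.4-fold (adjusted p = 3.65e-14). *DLX1* rose from 6.10, 7.05 and 6.57 to 12.77, 12.86 and 12.62, at least 16.8-fold (adjusted p = 4.12e-12). These DLX factors act in progenitors and young neurons of the ganglionic eminences, and the 3 arrays of each group lay within 1 log2 unit of each other.

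The other DLX genes and factors of the same lineage moved the same way. *DLX2* differed by 3.69 (log2) and rose at least 1.07-fold, and *DLX6* differed by 2.96 with no array above background. *GSX2*, a homeobox gene that acts before the DLX genes in the lateral ganglionic eminence, read 6.12, 6.84 and 6.68 in control and 9.61, 10.22 and 10.11 in *ROR2* KD cells, at least 2.46-fold higher (adjusted p = 4.84e-07). *NR2F1*, a nuclear receptor of the caudal ganglionic eminence and of cortical patterning, was above background on all 6 arrays and rose 12.7-fold, from 9.81, 10.45 and 10.31 to 13.73, 13.91 and 13.92 (adjusted p = 2.14e-09). *SCGN*, a calcium-binding protein of interneurons, read 3.69 ± 0.33 (SD, n = 3) in control and 8.59 ± 0.30 in *ROR2* KD cells.

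Of the genes of GABA synthesis and release, *GAD2* and *SLC32A1* were called higher, both dim. *GAD2*, which makes GABA from glutamate, read 4.48, 5.02 and 4.71 in control and 7.56, 7.03 and 8.29 in *ROR2* KD cells (log2 difference 2.89, adjusted p = 7.78e-06), and 1 of the 6 arrays was above background. *SLC32A1*, the transporter that loads GABA into vesicles, differed by 2.49 with no array above background. *GAD1*, the other GABA-synthesizing enzyme, read 7.37, 7.82 and 8.30 against 8.96, 9.13 and 9.72, a log2 difference of 1.44 that was not called (adjusted p = 0.063), with the *ROR2* KD arrays above background. With dim clusters left out of the test its adjusted p was 0.0144, and it was called. Peptides and calcium-binding proteins of more mature interneurons were not called and were above background on no array, with log2 differences of 0.51 for *SST*, -0.04 for *NPY*, -0.07 for *CALB2* and -0.40 for *RELN*. *SP8*, a zinc finger factor of the same lineage, was bright in both groups and differed by 0.06. The member that fell was *CXCR4*, the chemokine receptor of migrating interneurons and of many other cells, from 12.38, 12.27 and 12.82 to 9.76, 9.88 and 9.70, a 6.53-fold decrease (adjusted p = 7.89e-07).

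**Figure D2:**
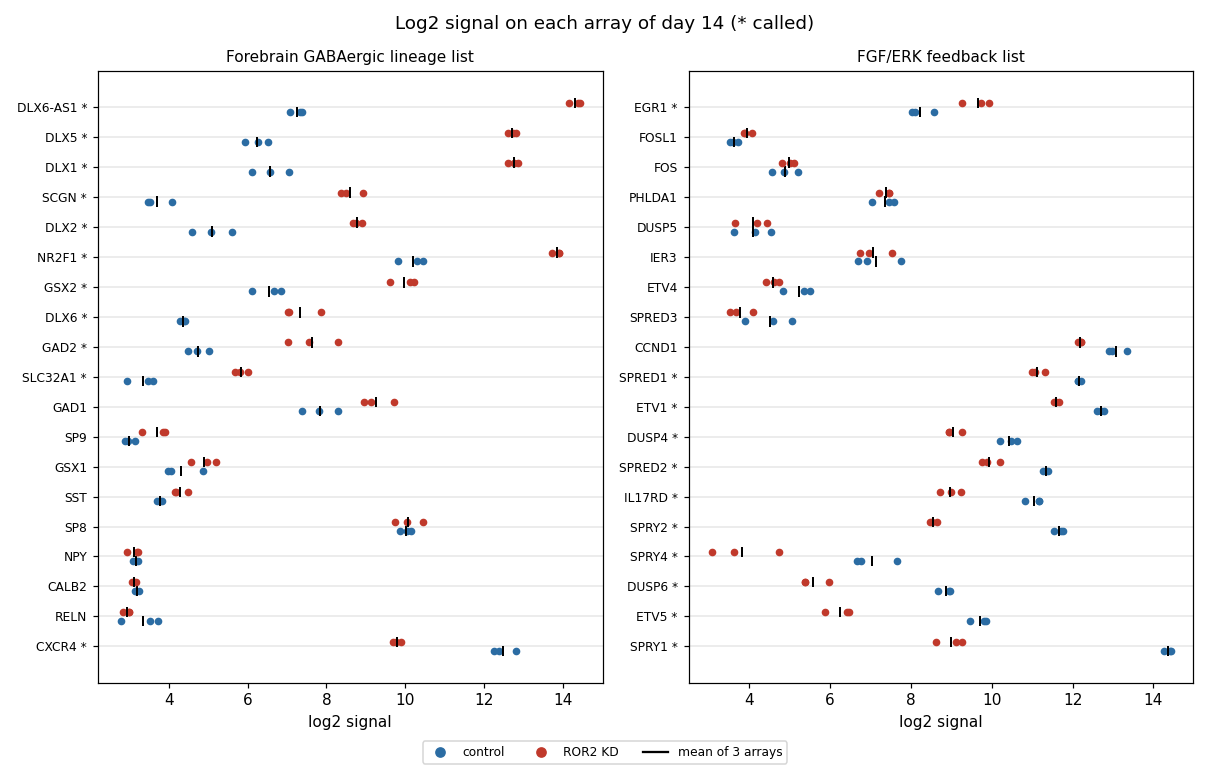
Log2 signal of each member of 2 gene lists on the 6 arrays of day 14, with control arrays in blue, ROR2 KD arrays in red, a black tick at the mean of 3 arrays and an asterisk at called genes. In the left panel the ROR2 KD arrays lie to the right for 10 called genes of the GABAergic list, and in the right panel they lie to the left for 10 called genes of the FGF/ERK list, SPRY1 with the widest gap.

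Many negative regulators and targets of FGF/ERK signaling fell. All 19 listed genes had a cluster, and 10 fell, 1 rose and 8 were not called, with a median of -1.03. The called share was 57.9%, against 1.7% of all genes. *SPRY1*, a Sprouty protein that inhibits receptor tyrosine kinase signaling, read 14.42, 14.25 and 14.42 in control and 9.27, 8.61 and 9.13 in *ROR2* KD cells. All 6 arrays were above background and the groups were more than 4 log2 units apart. The decrease was 41.1-fold (log2 fold change -5.36, standard error 0.23, adjusted p = 2.33e-12). *SPRY2* fell 8.67-fold, from 11.76, 11.53 and 11.70 to 8.65, 8.53 and 8.47 (adjusted p = 1.55e-07). *SPRY4* differed by -3.22 with no array above background. *DUSP6*, the phosphatase that switches off ERK, read 8.94, 8.67 and 8.97 against 5.98, 5.39 and 5.38, at least 1.99-fold lower (adjusted p = 2.17e-07). *ETV5*, an ETS factor induced by FGF signals, read 9.86, 9.47 and 9.81 against 6.42, 5.87 and 6.46, at least 3.59-fold lower (adjusted p = 3.54e-08).

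Further members fell by less. *IL17RD*, which also damps FGF receptors, fell 4.23-fold with all arrays above background. Decreases of 2.04-fold to 2.63-fold were found for *SPRED1*, *SPRED2*, *ETV1* and the ERK phosphatase *DUSP4*, again with all 6 arrays above background. *CCND1*, the D-type cyclin that mitogens induce, differed by -0.90 (adjusted p = 0.0523). The member that rose was *EGR1*, an immediate early gene, from 8.02, 8.10 and 8.56 to 9.26, 9.74 and 9.94 (log2 fold change 1.42, at least 1.95-fold, adjusted p = 0.0304). It was not called without control replicate 1 or 2 or *ROR2* KD replicate 2 or 3. Other early targets, *FOS*, *FOSL1*, *IER3* and *PHLDA1*, were above background on no array and differed by -0.06 to 0.33.

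FGF receptors and ligands went different ways. Of 20 measured genes, 2 rose and 1 fell (15% called, against 1.7% of all genes). *FGFR2* rose 9.24-fold, from 8.69, 8.85 and 8.80 to 11.76, 12.13 and 12.09 (adjusted p = 2.32e-10), with 2 of 3 control arrays above background. *FGFR3* read 5.61, 6.10 and 6.18 in control and 8.19, 8.63 and 8.46 in *ROR2* KD cells (measured log2 difference 2.46, adjusted p = 2.76e-06), while the bright *FGFR1* differed by -0.18. *FGF8*, the ligand of the anterior neural ridge and the isthmus, read 8.72, 8.66 and 9.16 in control and 5.85, 6.16 and 6.15 in *ROR2* KD cells, at least 1.97-fold lower (adjusted p = 1.23e-05). The bright ligands *FGF2* and *FGF9* differed by -0.53 and 0.03 and were not called.

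Promoter sequences are shown for 3 genes of these groups, since the members moved together and their start sites can be set beside each other. The windows come from RefSeq (GRCh38.p14) and run from 250 bases before to 50 after a start site. They were searched on both strands for CCGGAA, the core that ETS factors bind, and for TAATTA, a core of many homeodomain factors that reads the same on both strands. The 2 motifs cannot overlap. CCGGAA was present in 17.2% of 35116 windows and TAATTA in 4.84%. Of the 10 lower FGF/ERK genes, 8 had a window, and 5 of their 18 windows held CCGGAA, in *SPRY1*, *SPRY2* and *ETV1*. Overlapping windows of *ETV1* held the same site. TAATTA was present in 1 of the 18, a window of *ETV1*. Of the 10 higher GABAergic genes, 9 had a window, and 1 of their 11 windows held TAATTA, that of *DLX6-AS1*. Several windows of a gene may overlap, and a match is a description of the letters only. Only windows with a match are shown, and other windows of *SPRY1* and *SPRY2* held none. Matches are in capitals.
DLX6-AS1, chr7:97014016-97014315, minus strand: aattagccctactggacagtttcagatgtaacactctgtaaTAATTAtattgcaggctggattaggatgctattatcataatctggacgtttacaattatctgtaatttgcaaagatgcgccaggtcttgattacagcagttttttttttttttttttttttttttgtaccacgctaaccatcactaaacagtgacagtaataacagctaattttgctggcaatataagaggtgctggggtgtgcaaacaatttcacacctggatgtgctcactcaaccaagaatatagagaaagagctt
SPRY1, chr4:123398136-123398435, plus strand: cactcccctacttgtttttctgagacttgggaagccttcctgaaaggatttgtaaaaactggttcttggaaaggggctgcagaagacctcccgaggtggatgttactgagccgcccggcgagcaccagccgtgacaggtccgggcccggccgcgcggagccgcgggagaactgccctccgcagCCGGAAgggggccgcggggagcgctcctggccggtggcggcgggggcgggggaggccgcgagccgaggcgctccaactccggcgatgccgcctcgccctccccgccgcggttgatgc
SPRY2, chr13:80341077-80341376, minus strand: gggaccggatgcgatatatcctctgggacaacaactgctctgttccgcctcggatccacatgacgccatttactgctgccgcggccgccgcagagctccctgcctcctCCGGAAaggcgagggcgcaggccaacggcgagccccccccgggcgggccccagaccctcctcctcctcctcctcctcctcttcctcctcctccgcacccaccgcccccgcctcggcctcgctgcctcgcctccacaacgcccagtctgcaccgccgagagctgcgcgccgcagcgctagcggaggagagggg

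Transcription factors of the ZIC family fell. All 4 measured members were called lower (100% called, against 1.7% of all genes). *ZIC1*, a zinc finger factor of the dorsal neural tube and of the early neural plate, held the largest decrease of any gene with a symbol. It read 16.32, 15.95 and 16.25 in control and 8.45, 7.00 and 8.32 in *ROR2* KD cells, among the brightest transcripts in one group and close to the background level in the other. The decrease was 306-fold (log2 fold change -8.26, standard error 0.48, adjusted p = 2.74e-10), with 2 of 3 *ROR2* KD arrays above background. *ZIC4*, its neighbour in the genome, differed by -1.97, and the neighbours *ZIC2* and *ZIC5* by -2.25 and -2.64, all with no array above background.

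Other regional factors changed singly. *NKX2-1*, the homeobox gene of the medial ganglionic eminence and hypothalamus, read 9.18, 9.63 and 10.02 in control and 6.35, 6.32 and 6.17 in *ROR2* KD cells, at least 3.34-fold lower (adjusted p = 3.14e-08). Its neighbour *SFTA3* differed by -2.12 under the background level. *SIM1*, a hypothalamic bHLH factor, differed by 1.44, and the other 16 of 18 measured genes of ventral patterning and hypothalamus were not called. *ISL1*, one of them, had 2 clusters that disagreed, 1 at 2.78 (adjusted p = 3.53e-06) and the brighter at -0.27 (adjusted p = 1). Of 17 forebrain factors, the homeobox genes *BARHL2* and *OTX1* were called higher at 1.70 and 1.40, the former with no array above background, while *FEZF1*, a repressor of early forebrain, fell from 14.76, 15.04 and 15.20 to 13.96, 13.97 and 13.99 (log2 fold change -1.02, adjusted p = 0.0123). *SLC17A6*, the vesicular glutamate transporter of excitatory neurons, rose at least 1.52-fold (adjusted p = 0.0418). *OTX1* was not called without control replicate 2 or 3 or *ROR2* KD replicate 3, *SIM1* without control replicate 2 or *ROR2* KD replicate 1 or 3, *FEZF1* when any array other than control replicate 1 was left out, and *SLC17A6* whichever array was left out. Of 19 genes of midbrain and hindbrain *FGF8* was called, and of 7 HOX genes none was. The called shares were 11.1% for ventral patterning and hypothalamus, 17.6% for the forebrain factors and 5.26% for midbrain and hindbrain, against 1.7% of all genes. *PROX1*, a homeobox gene of cells leaving the cycle, rose from 4.96, 5.21 and 5.44 to 8.52, 9.29 and 8.78 (log2 difference 3.66, at least 1.13-fold, adjusted p = 2.49e-10).

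NS/PC genes were expressed in both groups, and 7 of 19 were called (36.8%, against 1.7% of all genes). *PAX6*, the paired-box factor of neural progenitors, rose 4.71-fold, from 12.46, 13.14 and 13.16 to 15.07, 15.37 and 15.02 (adjusted p = 2.51e-05). *LIX1* and *DACH1* rose by 2.33 and 1.73, and *SOX3* and *POU3F2* by at least 1.02-fold and 1.01-fold, at measured differences of 2.64 and 1.25. *FABP7*, the fatty acid-binding protein of radial glia, fell from 16.77, 17.31 and 17.32 to 16.11, 15.87 and 15.85 (log2 fold change -1.19, adjusted p = 0.00288), and *HES1*, a target of Notch, by 1.37. *SOX2* and *NES* were bright in both groups and differed by -0.32 and 0.16, and *SOX1* by -0.84 (adjusted p = 0.284). None of 15 pluripotency genes was called.

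Genes of young neurons were higher. Of 19 measured, 8 rose, 0 fell and 11 were not called (42.1% called, against 1.7% of all genes), with a median of 0.87. *STMN2*, a regulator of microtubules in growing axons, rose from 14.49, 14.76 and 14.44 to 16.40, 16.19 and 16.28 (3.31-fold, adjusted p = 0.00653). *DCX*, the microtubule protein of migrating neurons, rose from 14.62, 14.68 and 14.81 to 16.02, 15.89 and 15.86 (2.33-fold, adjusted p = 0.00343). *INA* and *NEFL*, which encode neuronal filaments, *ELAVL3*, an RNA-binding protein, and *GAP43*, a protein of growth cones, rose by 1.01 to 1.74, the last at least 2.2-fold. The neuronal *MAP2* read 15.27 ± 0.06 in control and 15.94 ± 0.22 in *ROR2* KD cells and was not called (adjusted p = 0.182). Summed over the 5 neuron markers measured, the log2 signal was 16.44 to 16.55 in control cells and 17.66 to 17.69 in *ROR2* KD cells, and the sum over 8 NS/PC markers 18.42 to 18.67 and 18.42 to 18.44. The neuron markers thus moved with the GABAergic, guidance and cadherin genes, and their part in those results was not tested.

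Of 17 measured proneural factors, which start neurogenesis, *NHLH1*, *NHLH2*, *NEUROG1* and *NEUROD4* fell and *MYT1* rose (29.4% called, against 1.7% of all genes). *NHLH1*, a bHLH factor of newborn neurons, read 10.08, 9.97 and 9.42 in control and 9.19, 7.71 and 7.77 in *ROR2* KD cells (log2 fold change -1.60, adjusted p = 0.0142). *NEUROD4*, *NEUROG1* and *NHLH2* were under background on all arrays. These counts depended on the fit, since 3 rose and 1 fell when the 6 arrays of day 14 were fitted alone, where *NHLH1* (adjusted p = 0.11), *NHLH2* (0.0561) and *NEUROG1* (0.113) were not called. Without control replicate 1, *ROR2* KD replicate 2 or *ROR2* KD replicate 3, 2 fell. In the Notch pathway, the ligand *DLL3* rose by 1.63, and the effectors *HES1* and *HEY1* fell by 1.37 and 1.27, while the other 17 of 20 genes were not called. The called share was 15%, against 1.7% of all genes. *HEY1* was not called without control replicate 2 or 3 or *ROR2* KD replicate 1 or 2. Of 26 synaptic genes, 4 rose and 1 fell (19.2% called, against 1.7% of all genes). Those that rose included *SNAP25*, a SNARE protein of vesicle release (measured log2 difference 1.75), *NRXN3* (at least 2.17-fold) and *SLITRK1* (at least 2.4-fold). Of the AMPA receptor subunits, *GRIA2* was higher by 2.05 in measured signal, and *GRIA4* differed by -1.74 with no array above background.

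Cadherins and protocadherins, which hold cells of a kind together, were often higher. Of 23 measured, 11 rose and 0 fell, with a median of 0.93, and 8 to 11 rose when 1 array was left out. The called share was 47.8%, against 1.7% of all genes. *PCDH11X* rose from 9.42, 9.71 and 9.46 to 12.49, 12.98 and 12.79 (9.31-fold, adjusted p = 9.92e-09), though its near-identical copy on the Y chromosome may share probes with it. *PCDH17* rose from 11.19, 11.47 and 11.09 to 13.70, 14.07 and 14.09 (6.5-fold, adjusted p = 3.32e-08), and *CDH7* at least 4-fold. *CDH6*, *CDH8*, *CDH11*, *CDH18*, *CDH20*, *PCDH7*, *PCDH9* and *PCDH15* were called higher at 1.02 to 2.49, *CDH8* at least 1.23-fold and *PCDH15* with no array above background. *CDH2*, the cadherin of the neural epithelium, was bright in both groups at 16.09 ± 0.07 and 16.51 ± 0.01 and was not called (adjusted p = 0.704). *FAT4*, an atypical cadherin of planar polarity, rose 13.3-fold from 12.69, 12.91 and 12.71 to 16.39, 16.62 and 16.51 (adjusted p = 9.91e-09).

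Receptors and ligands of axon guidance split by gene. Of 39 measured, 9 rose and 3 fell (30.8% called, against 1.7% of all genes), with a median of 0.21. *EPHA3*, an ephrin receptor, rose 17.8-fold from 9.36, 10.23 and 10.35 to 14.06, 14.30 and 14.04 (adjusted p = 1.63e-09). *EPHA7* rose 7.11-fold and the ephrin *EFNB2* 8.62-fold, all above background, while the receptor *EPHA2* and the ephrin *EFNA5* fell by 1.17 (at least 1.62-fold) and 1.06. The slit receptors went opposite ways although they lie next to each other on chromosome 3. *ROBO2* rose from 8.65, 8.91 and 8.92 to 11.27, 11.42 and 11.40 (adjusted p = 1.86e-07). *ROBO1* fell from 13.70, 13.84 and 13.79 to 12.65, 12.31 and 12.73 (adjusted p = 0.000384). *DCC*, the netrin receptor, and *SEMA3A*, a repulsive semaphorin, rose 4.73-fold and 3.03-fold with all 6 arrays above background.

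Among genes of the matrix and basement membrane, 7 of 51 measured fell and 1 rose (15.7% called, against 1.7% of all genes), with a median of -0.28. *FBLN1*, the matrix protein fibulin, fell from 11.77, 11.93 and 11.89 to 7.63, 6.93 and 7.46, at least 15.9-fold (adjusted p = 2.01e-09). *LAMC1*, a laminin chain of basement membranes, fell 3.45-fold from 14.31, 14.14 and 14.17 to 12.56, 12.43 and 12.28 (adjusted p = 7.98e-06). *COL9A1* and *COL2A1* fell by 1.85 and 1.22, and *ITGB5* and *SPON1*, the latter at -2.15, were called lower with no array above background. *TNC*, a matrix protein of radial glia, differed by -3.80 with no array above background, and the gene that rose was the integrin *ITGB8* (2.8-fold). The gelatinase *MMP2* fell 3.47-fold, from 11.71, 11.93 and 12.05 to 10.18, 10.08 and 10.06, and fibronectin, *FN1*, read 12.46 ± 0.27 and 11.76 ± 0.28 (adjusted p = 0.253). *IGFBP3*, which binds insulin-like growth factors, fell 17.7-fold, from a mean of 12.22 ± 0.28 (SD, n = 3) to 8.31, 8.14 and 7.76 (adjusted p = 5.97e-11), with 2 of 3 *ROR2* KD arrays above background.

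In WNT signaling, 10.5% of the ligands, 16.7% of the receptors and antagonists and 11.8% of the canonical targets were called, against 1.7% of all genes. Of 19 ligands, *WNT7A*, made by cortical progenitors, rose from 4.32, 5.33 and 5.37 to 9.10, 9.24 and 9.49 (log2 difference 4.27, at least 1.51-fold, adjusted p = 2.08e-08), and *WNT2B* differed by -1.68 under background. Of 30 receptors and antagonists, 3 rose and 2 fell, *ROR2* among the latter. The Frizzled receptors differed in direction, with *FZD7* rising from 10.62, 10.39 and 10.50 to 12.14, 12.29 and 12.43 and *FZD5*, a receptor of the eye field and forebrain, falling from 13.61, 13.59 and 13.78 to 11.35, 11.29 and 11.38 (adjusted p = 5.93e-06 and 5.76e-07). *SFRP2*, a secreted antagonist, rose 2.96-fold and was bright in both groups. *RSPO1*, a secreted agonist, fell at least 1.95-fold, with 2 control arrays above background. Of 17 targets of canonical WNT signaling, *LGR5* (at least 1.42-fold) and *TNFRSF19* (no array above background) were called higher and 0 lower, with a median of -0.02. *LGR5* was not called when any array other than control replicate 3 was left out.

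Of the BMP, hedgehog and YAP lists, 18.8%, 21.4% and 30.8% were called, against 1.7% of all genes. Of 32 BMP and TGF-beta genes, 4 rose and 2 fell. *BMP5* rose at least 2.11-fold, and *BMP4* read 4.58, 5.66 and 6.73 against 7.87, 7.76 and 7.70 (adjusted p = 0.00502). *ID4* rose from 8.95, 9.67 and 9.73 to 11.22, 11.26 and 11.17 and *ID2* fell from 12.19, 12.02 and 12.41 to 10.46, 10.51 and 10.22, both helix-loop-helix proteins that BMP signals induce. In the hedgehog list of 14, *PTCH1*, the receptor and a target of the pathway, and *GLI3*, its main repressor in the forebrain, rose by 1.12 and 1.09, and the coreceptor *CDON* fell 4.76-fold from 12.21, 11.89 and 12.28 to 9.91, 9.63 and 10.09 (adjusted p = 6.13e-07). Of 13 YAP and TEAD targets and partners, *CCN2* rose at least 4.56-fold, *CCN1* 4.85-fold and *AJUBA* 5.73-fold, and *F3* fell at least 1.95-fold. *NTRK2*, the receptor of BDNF, rose from 6.76, 7.33 and 7.19 to 11.74, 11.31 and 11.31, at least 6.82-fold (adjusted p = 2.75e-09).

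Of 22 genes of glycolysis and hypoxia, 5 fell and 0 rose (22.7% called, against 1.7% of all genes), with a median of -0.31. Without control replicate 3 or without *ROR2* KD replicate 2, 3 fell. *LDHA*, lactate dehydrogenase, fell 4.17-fold from 13.32, 13.57 and 13.66 to 11.50, 11.20 and 11.66 (adjusted p = 8.3e-06), and *AK4* at least 2.1-fold. *SLC2A1*, a glucose transporter, fell 2.01-fold and was not called without control replicate 1 or 3 or *ROR2* KD replicate 2 or 3, and *ALDOC*, an aldolase with no array above background, without control replicate 2 or *ROR2* KD replicate 1 or 2. All 12 measured genes of cholesterol synthesis lay below 0 (median -0.73), and 2 of them, *FDPS* and *STARD4*, were called, the former not without *ROR2* KD replicate 2. All 24 genes of mitosis lay below 0 as well (median -0.61), and *TPX2* and *HMMR* were called, the former losing its call whichever array was left out, while 0 of 27 genes of DNA replication were (median -0.39). The called shares were 16.7% for cholesterol synthesis and 8.33% for mitosis, against 1.7% of all genes. The share of all genes that lay below 0 was not counted. The median of all genes was -0.03, and those of the reference and ribosomal protein genes were -0.18 and -0.15. *MKI67*, the proliferation marker, differed by -0.48 (adjusted p = 0.545). *CDK6*, a kinase of the G1 phase, fell from 9.23, 8.54 and 8.88 to 6.80, 6.46 and 7.37, at least 2.02-fold, with 2 control arrays above background. Of 7 metallothioneins, which bind zinc and copper, 3 rose (42.9% called, against 1.7% of all genes), *MT1X* at least 4.24-fold. None of 11 ribosomal protein genes, 19 stress genes, 14 interferon genes and 12 reference genes was called.

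**Figure D3:**
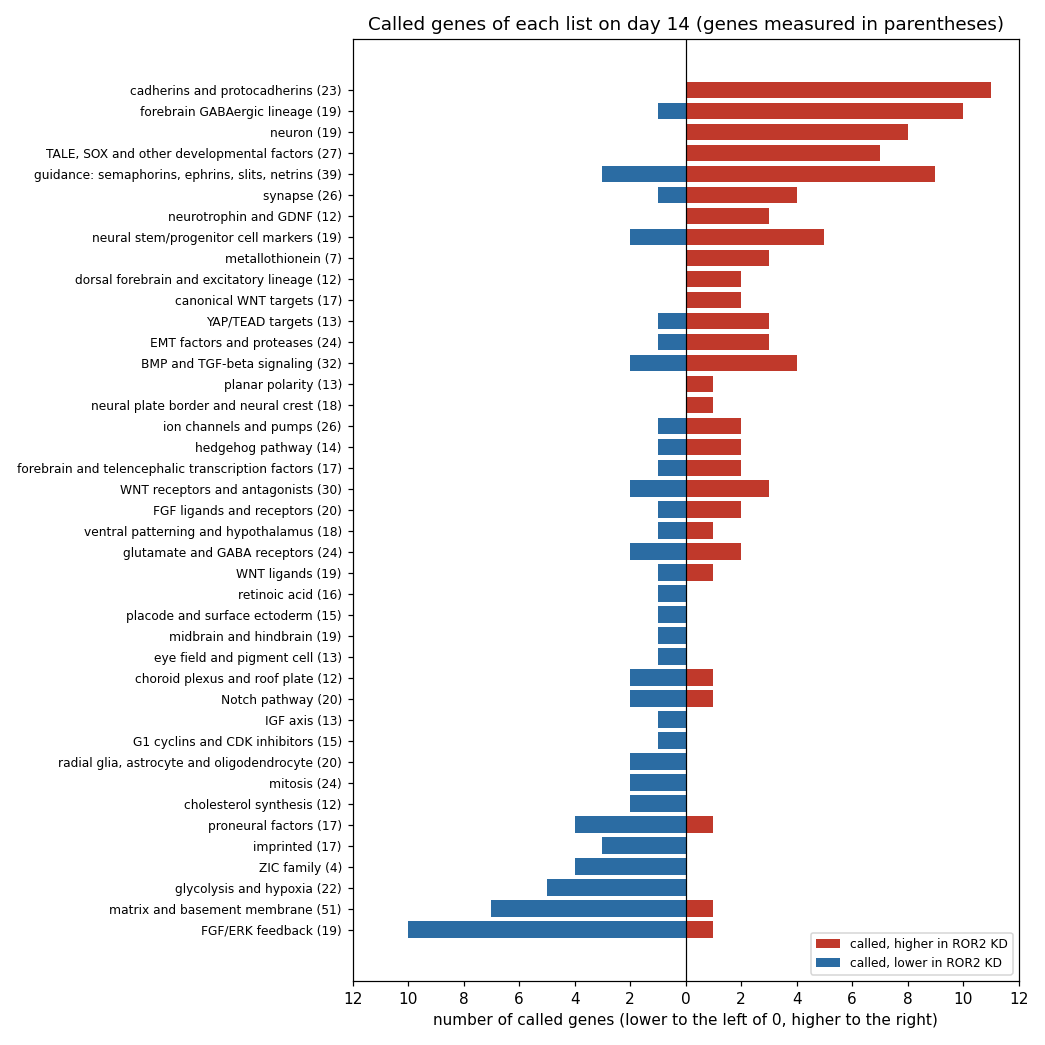
Number of genes called on day 14 in each gene list that held a call, lower in ROR2 KD cells to the left of 0 in blue and higher to the right in red, with the number of genes measured in parentheses. The cadherin list holds 11 higher genes and 0 lower, the GABAergic list 10 and 1, and the FGF/ERK feedback list 1 and 10.

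Other large increases were those of a potassium channel and of genes known from other tissues. *KCNJ13*, an inward rectifier of the choroid plexus and pigment epithelium, read 4.94, 4.62 and 5.70 in control and 11.43, 11.68 and 11.52 in *ROR2* KD cells, at least 7.27-fold higher (adjusted p = 1.63e-13). Markers of both tissues were under background in both groups, as given above, with summed log2 signals for the choroid plexus of 6.33 to 6.60 in control and 6.82 to 7.02 in *ROR2* KD cells, and for pigment cells of 8.27 to 8.66 and 6.83 to 7.28. *PMEL*, the pigment cell marker that was called, differed by -1.84 with no array above background. The part of these cells in the result was not tested. *AMBN*, an enamel matrix gene, and *LAMP5*, a membrane protein of a class of interneurons, rose at least 2.95-fold and 2.31-fold. *LIMCH1*, which binds actomyosin, rose at least 5.92-fold.

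Among the decreases, *NNAT*, an imprinted gene of neurons, fell from 12.68, 12.49 and 12.86 to 7.82, 7.16 and 8.16 (31.2-fold, adjusted p = 5.31e-09), with 2 *ROR2* KD arrays above background. *HDC*, which makes histamine, fell at least 11.3-fold from 11.43, 11.02 and 11.65 to 7.10, 7.43 and 7.38. *ABLIM1*, an actin-binding protein, *CD82*, a tetraspanin, and *ALCAM*, an adhesion molecule of growing axons, fell 13.7-fold, 13.4-fold and 9.73-fold. *SOHLH2*, a germ cell factor, its neighbour *CCDC169* and their readthrough transcript *CCDC169-SOHLH2* fell together and share exons, so that they are not separate measurements. *DLK1*, another imprinted gene, was among the brightest transcripts and fell from 18.73, 18.69 and 18.86 to 17.75, 17.64 and 17.83 (adjusted p = 0.0123).

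Some called genes lay side by side. In the gene order of GRCh38.p14, 36 of 24361 pairs of adjacent genes had both members called, 16 with both higher, 12 with both lower and 8 in opposite directions, among 551 called genes with a position. The pairs included *DLX1* and *DLX2*, *DLX5* and *DLX6*, *NR2F1* and *NR2F1-AS1*, *ZIC1* and *ZIC4*, *ZIC2* and *ZIC5*, *SFTA3* and *NKX2-1*, and *FGF8* and *NPM3*. Overlapping transcripts can share probes, and paralogs such as the metallothioneins *MT2A* and *MT1L* can share sequence.

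By the gene types of RefSeq, 13 higher and 10 lower genes were noncoding transcripts or pseudogenes, and 289 and 239 were protein-coding. Another 22 called genes had no type. The noncoding genes tested were not counted, so that their called share is not known. The long noncoding RNAs included *DLX6-AS1*, *NR2F1-AS1*, which rose 10.6-fold from 9.17, 9.32 and 9.59 to 12.39, 13.01 and 12.91 (adjusted p = 1.19e-07), and *NR2F2-AS1*, which differed by 3.03 with no array above background. Of microRNA genes, *MIRLET7C* read 5.70, 5.65 and 5.29 in control and 6.51, 7.42 and 6.72 in *ROR2* KD cells, a log2 difference of 1.34 (adjusted p = 0.0341). Its host transcript *MIR99AHG* rose from 10.93, 11.03 and 10.84 to 12.44, 12.25 and 12.24 (log2 fold change 1.37, adjusted p = 0.0275). *MIR217* differed by -1.13 (adjusted p = 0.0174). Both microRNA genes were under background on all 6 arrays, and the clusters do not separate the mature microRNA from its precursor. The mature forms of the 5p arm are given by RefSeq (GRCh38.p14), let-7c at chr21:16539838-16539859 on the plus strand and miR-217 at chr2:55983020-55983042 on the minus strand. Capitals mark the seed, bases 2 to 8, which 11 mature names share for let-7c and 2 for miR-217.
hsa-let-7c-5p: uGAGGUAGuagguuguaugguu
hsa-miR-217-5p: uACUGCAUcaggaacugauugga

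Day 14 was set beside days 7 and 21, each with 3 arrays per group of its own, to see when the differences arose. On day 7, 0.273% of the clusters with a symbol were called and on day 21, 4.52%. The difference on day 14 differed from that on day 7 (adjusted p under 0.05 for the difference of the contrasts) for 254 of the 607 called clusters, against 0.815% of all clusters with a symbol, and from that on day 21 for 145 of them, against 1.34%. The 607 were called for their difference on day 14, which is part of both contrasts, so that a larger share among them is built in. Genes called higher on day 14 numbered 314, of which 14 were also called higher on day 7 and 4 lower. On day 21, 174 of them were called higher and 7 lower. Of the 259 lower genes, 9 were called lower and 2 higher on day 7, and 112 lower and 7 higher on day 21.

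The time courses fell into different shapes. *DLX1* was at 4.29 to 4.87 in control and 4.34 to 5.49 in *ROR2* KD cells on day 7, and on day 21 control cells reached 13.35 to 13.53 and *ROR2* KD cells 15.13 to 15.53. No array of day 7 and no control array of day 14 was above background for it. The measured difference of 6.18 on day 14 was larger than that on either other day (by 5.71 over day 7, adjusted p = 1.84e-08, and by 4.24 over day 21, adjusted p = 9.36e-07). *DLX1* was named for its large difference on day 14, so that these tests are not separate support for it. *SPRY1* was high in both groups on day 7, at 15.42 to 15.68 in control and 15.51 to 15.69 in *ROR2* KD cells, and under background on day 21, at 7.13 to 7.79 and 5.91 to 6.75. *ETV5* had also fallen in both by day 21, to 3.21 to 3.80 in control and 6.15 to 6.94 in *ROR2* KD cells, where the order was the reverse of day 14 with no array above background. *IGFBP3* stood at 14.68 to 14.77 and 15.11 to 15.39 on day 7 and, under background, at 3.82 to 4.65 and 4.45 to 4.93 on day 21.

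Some other differences were present before or persisted after day 14, while those of *HDC* and *FGFR2* were largest on day 14. *ZIC1* already differed on day 7 (log2 fold change -3.41, adjusted p = 0.00171) and stayed at 14.56 to 14.69 in control and 5.47 to 6.24 in *ROR2* KD cells on day 21. *KCNJ13* was high in both groups on day 7, at 9.86 to 10.34 and 11.35 to 11.80, and stayed high in *ROR2* KD cells only, at 11.36 to 11.77 on day 21 against a mean of 4.89 in control cells. *HDC* was high on day 14 in control cells and read 5.69 to 6.06 on day 7 and 6.87 to 7.82 on day 21 there. Its means in *ROR2* KD cells were 5.42 on day 7 and 6.16 on day 21, and no array of these days was above background. *FGFR2* recovered in control cells, from 8.69 to 8.85 on day 14 to 13.14 to 13.26 on day 21, against 12.59 to 12.78 in *ROR2* KD cells. On day 7 its means were 9.89 in control and 9.83 in *ROR2* KD cells. *PAX6* differed by 2.23 on day 14 and by 10.58 on day 21, a change of -8.34 from the later day to day 14 (adjusted p = 5.84e-12).

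**Figure D4:**
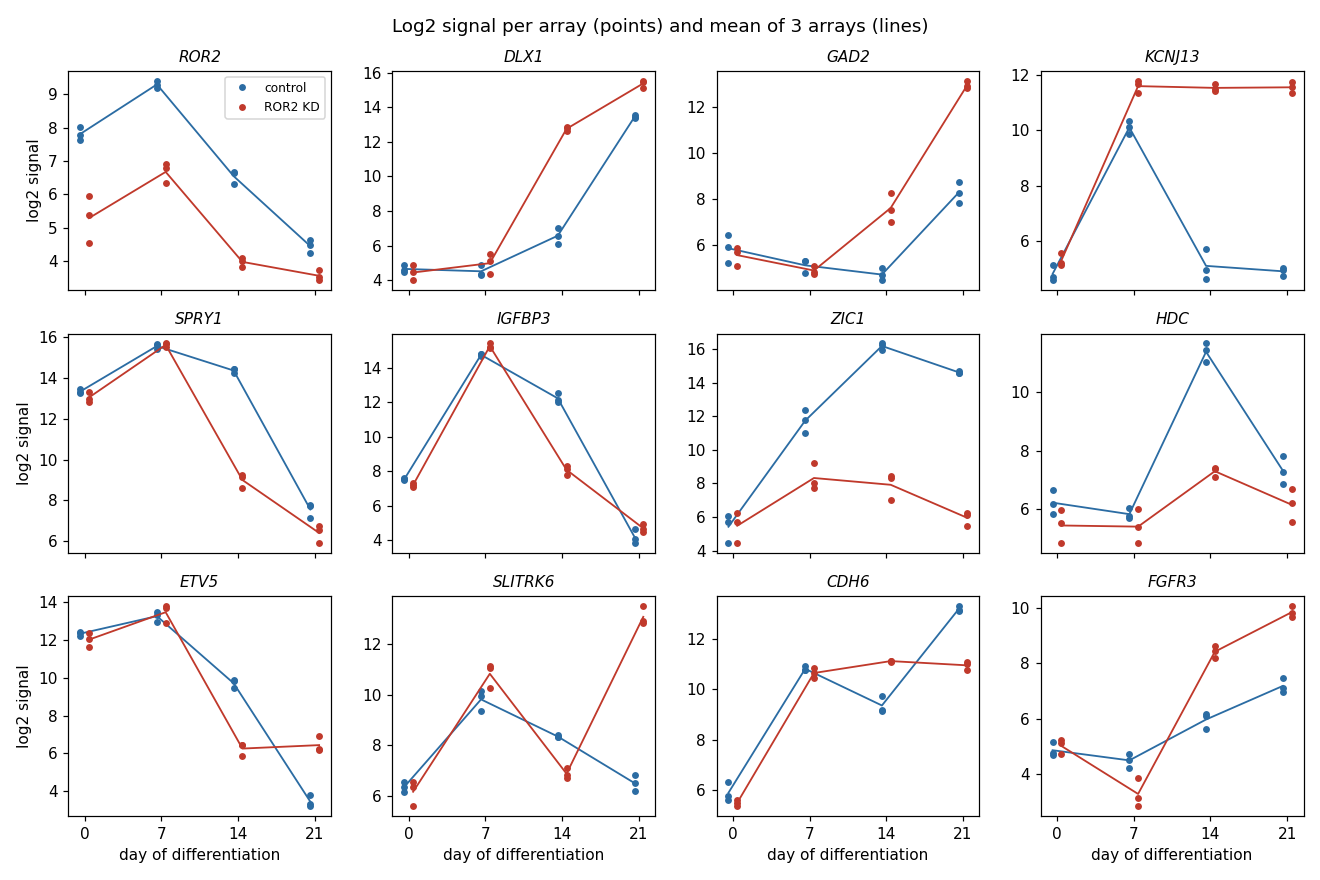
Log2 signal of 12 genes on each array (points) and as the mean of 3 arrays (lines) on days 0, 7, 14 and 21 of differentiation, with control cells in blue and ROR2 KD cells in red. DLX1 and SPRY1 are widest apart on day 14, at 6.18 and -5.36, ZIC1 and KCNJ13 stay apart on day 21, and ETV5, SLITRK6 and CDH6 change order between day 14 and day 21.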

How the data were processed

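Total RNA of control and *ROR2* KD cells was hybridized to Clariom D arrays, 3 per cell line on days 0, 7, 14 and 21. The authors processed the arrays with RMA in Transcriptome Analysis Console (the genome build was not given in the sources used here), and the deposited values are log2 signals. They were used as deposited, with no further scaling. After removal of 2995 array controls from 138745 probe sets, the platform annotation gave 36176 of the 135750 remaining clusters 1 gene symbol, 1119 several and 98455 none. RefSeq held the Entrez gene ID of 25516 clusters with 1 symbol.

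All 24 arrays entered 1 model with a mean for each of 8 groups in limma 3.58.1 in R 4.3.3, with 16 residual and 6.36 prior degrees of freedom. Two-sided p-values received Benjamini-Hochberg adjustment over the 135750 clusters, and the differences between days were tested as differences of contrasts. For genes with more than 1 single-symbol cluster, the brightest on average was used. The number of arrays limits the precision.

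The genes named are those the study names, the 15 called genes that rose most and the 15 that fell most, called members of the gene lists, noncoding genes among the 10 largest changes of their kind, and the 5 genes in each direction with the largest difference between days after opposite calls. Adjacent genes were chosen after their values were seen. The members and lists were chosen with earlier results of these data known. On simulated arrays of day 14, 64 of 100 genes changed by 1.5 (log2) and 100 of 100 changed by 3 were called, with 0 unchanged clusters called. The simulated noise was normal and independent between clusters and arrays, with no effect shared by an array or culture. These counts therefore do not give the rate of false calls on the real arrays. Other fits, scalings, filters and thresholds were tried as alternatives. Fold bounds and a count limited to clusters above background in the brighter group were chosen after seeing the data.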

Additional observations from a re-analysis of the deposited data

Results flagged for a closer look

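Some differences between *ROR2* KD and control cells changed sign between days, and the test of the difference between days gave an adjusted p under 0.05 for each gene named here. *SLITRK6*, a synaptic adhesion molecule, stood below control cells on day 14 and above them on day 21, and its log2 difference on day 14 minus that on day 21 was -8.03. The same measure was -6.46 for the ETS factor *ETV5*, -3.70 for the signaling adaptor *SHC3* and -3.31 for the AMPA receptor subunit *GRIA4*. *CDH6* (4.02) and the LIM-only factor *LMO1* (3.59) were higher on day 14 and lower on day 21, with all arrays of both days above background. On day 14, *SLITRK6*, *SHC3* and *GRIA4* were above background on no array, and on day 21 neither were *ETV5* and *SHC3*, so that these values are differences of measured signals and give no size of a change in RNA.

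Against day 7, the potassium channel subunit *KCNQ3* turned from higher to lower (-3.41), and *SLITRK1* (3.99), the receptor *FGFR3* (3.68) and the cadherin *CDH23* (3.23) from lower to higher. *CDH23* was above background on no array of either day, and *FGFR3* and *KCNQ3* on none of day 7. *ROR2* was called lower on days 7 and 14, and its log2 difference on day 14 minus that on day 21 was -1.68 (adjusted p = 0.0342). No array of day 14 or day 21 was above background for it, and on day 21 it differed by -0.89 and was not called (adjusted p = 0.0823), so that the sizes of the knockdown on these days cannot be compared.

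Of the called clusters of day 14, 254 differed from day 7 and 145 from day 21 in the size of the difference. Among transcript clusters without a gene symbol, which the comparison does not use, 201 were called on day 14, 133 higher and 68 lower.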

How the results depend on the processing

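None of the 167 named genes that were called changed direction under an alternative, and the other called genes were not checked for this. Most alternatives could not have changed a direction. They keep the same difference of means, or leave out 1 array from groups that do not overlap. The uncalled *EN1* (-0.24 to 0.03) and *GFAP* (-0.01 to 0.14) took either sign, as did the medians of 13 gene lists, all within 0.201 of 0 in the fit reported. With the methods' t-test after Benjamini-Hochberg adjustment, 7 clusters were higher and 3 lower, and the adjusted p of *ROR2* was 0.0754 at a log2 fold change of -2.56, and 6 of the 167 named genes that were called stayed called. Without adjustment the same test gave 429 and 373. A fold change above 4 left 105 higher and 57 lower. With clusters limited to those above background on all 3 arrays of the brighter group, 254 were higher and 145 lower. Leaving out each array in turn gave 240 to 297 higher and 167 to 228 lower clusters, the 167 without *ROR2* KD replicate 2, and *ROR2* at -2.68 to -2.48. Of these 167, 135 to 167 remained called under the other fits, scalings and omitted arrays, that t-test aside, and each omitted array lost 19 to 30 of them. *COL2A1*, *LMO1*, *NOG*, *SIX4*, *SLC17A6* and *TPX2* lost their call whichever array was left out, and *CDH11*, *CDH20*, *DLK1*, *DUSP4*, *EPHA2*, *GLI3*, *GRIA4*, *MT2A*, *NEFL*, *PCDH15* and *POU3F2* when any of a set of 2 to 4 arrays was left out. *GAD1*, not called, was called under 8 of 17 alternatives. Among genes lost without 1 array in particular, *BMP4* (adjusted p = 0.0574) and *TRIM24* (0.0513) needed control replicate 1, *ROR2* KD replicate 2 was needed by *FDPS* (0.0728) and *F3* (0.0511), and *ROR2* KD replicate 3 by *SPRED1* (0.0542) and *SLITRK6* (0.0613). The replicate numbers were not taken as pairs, since residuals of same-numbered arrays of day 14 correlated at -0.02 to 0.00, and a replicate block gave 294 higher and 223 lower clusters in the fit of 24 arrays and 263 and 181 in that of 6. Signal over background limits the size of many changes, since 157 of the 607 called clusters were above background on no array of day 14.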

Other observations

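The 4 near-identical paralogs *FAM72A*, *FAM72B*, *FAM72C* and *FAM72D* differed by -1.69 to -1.86 (log2) and may share probes, so that they count as 1 signal. On the X chromosome the neighbours *ARMCX3* and *ARMCX6*, which encode armadillo-repeat proteins, were higher by 1.90 and 2.12, and *ARMCX2* was higher by 2.54, from 12.53, 13.09 and 12.92 in control to 15.30, 15.46 and 15.39 in *ROR2* KD cells (adjusted p = 3.14e-08 from limma). Also neighbours, *HTR2C*, a serotonin receptor, and *XACT*, a noncoding RNA that coats the active X chromosome of pluripotent cells, differed by -2.74 and -1.60 with no array above background.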
